A study of Rattus norvegicus with 10 samples.

Results

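*Clca1*, *Scgb1d2-ps1*, *Aadat*, *Magea9* and *Pnmt* are 5 genes of no common pathway that lay far above BN in the mammary glands of ACI rats. They were chosen by a mean log2 difference of more than 5 toward ACI with no overlap between the 5 ACI and the 5 BN arrays. They are 5 of the 14217 genes, and 6 of the 31042 probe sets, in the data. The difference between the strains is therefore what chose these genes, and it is given below as a description with no test.

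The ACI rats (ACI/SegHsd) and the BN rats (Brown Norway) were females that carried subcutaneous implants releasing 17β-estradiol (E2), placed at 9 weeks of age and kept for 12 weeks. Total RNA of the mammary gland of each rat was hybridized to 1 Affymetrix Rat Genome array, giving 5 arrays per strain, and values are GCRMA expression levels on the log2 scale. No untreated rats are among these arrays, so each difference is one between strains under E2. The arrays of each strain were deposited apart, so that deposit and strain cannot be told apart, and the RNA isolation note of the BN samples mentions ACI rats although their strain is given as Brown Norway. Animal IDs that open with S (rats 1 to 3) or H (rats 4 and 5) occur in both strains, and what the letters stand for is not stated.

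Each gene has a different known role. CLCA1 is a secreted protein of goblet cells in the airway and gut of mice and humans, where it takes part in mucus processing and raises calcium-activated chloride currents. Secretoglobins are small secreted proteins of epithelial glands, and *Scgb1d2-ps1* is named as a pseudogene related to *Scgb1d2*. AADAT, formerly listed as Kat2, is a mitochondrial aminotransferase that converts aminoadipate in lysine breakdown and kynurenine in tryptophan breakdown. MAGEA9 belongs to the X-linked MAGE-A family, known in humans as antigens of germ cells and tumors. PNMT converts noradrenaline to adrenaline and is best known from chromaffin cells of the adrenal medulla.

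Promoter sequences were printed to show what stands before the starts of these genes, 5′ to 3′ on the strand of each gene. RefSeq gave one for 3 of the 5 genes, on build GRCr8. The windows are the 250 bases before the start, at chr2:236624715-236624964 on the minus strand for *Clca1*, chr16:34555181-34555430 on the minus strand for *Aadat* and chrX:147656427-147656676 on the plus strand for *Magea9*. Capitals mark every match to the motifs searched.
Clca1: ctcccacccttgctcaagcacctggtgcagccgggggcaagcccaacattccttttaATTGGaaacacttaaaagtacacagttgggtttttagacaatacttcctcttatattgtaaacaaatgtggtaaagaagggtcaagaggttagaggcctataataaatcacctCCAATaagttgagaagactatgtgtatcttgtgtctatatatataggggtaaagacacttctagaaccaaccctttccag
Aadat: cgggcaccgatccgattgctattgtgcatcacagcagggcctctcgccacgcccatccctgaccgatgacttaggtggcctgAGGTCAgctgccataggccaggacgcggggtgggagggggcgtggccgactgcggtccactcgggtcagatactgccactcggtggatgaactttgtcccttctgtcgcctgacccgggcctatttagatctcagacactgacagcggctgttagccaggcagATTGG
Magea9: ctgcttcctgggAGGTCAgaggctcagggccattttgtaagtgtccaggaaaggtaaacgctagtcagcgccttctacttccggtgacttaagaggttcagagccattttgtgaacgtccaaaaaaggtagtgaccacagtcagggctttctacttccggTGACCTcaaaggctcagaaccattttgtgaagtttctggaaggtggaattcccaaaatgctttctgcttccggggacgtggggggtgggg
In all, 7 motifs were searched on both strands. The core motif AGGTCA of estrogen response elements, which estrogen receptors bind, occurred 1 time in *Aadat* and 2 times in *Magea9*, against a share of 14.1% of all 33469 RefSeq promoters of the same length with at least 1 match. The CCAAT box (CCAAT), found in 34.0% of all promoters, occurred 2 times in *Clca1* and 1 time in *Aadat*. No match was found in these windows for a full estrogen response element (GGTCA, any 3 bases, TGACC; 0.0239% of all promoters), TATAAA (12.9%), the steroid receptor core motif AGAACA (17.5%), the STAT site TTCNNNGAA (7.67%) or the GC box GGGCGG (30.5%). The estrogen core motif can lie within the full element, so these searches overlap. No motif occurred in all 3 windows. The windows differed in base composition, with a GC content of 40.8% in *Clca1*, 62.0% in *Aadat* and 51.2% in *Magea9*, against a median of 51.2% over all promoters.

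*Clca1* was abundant in every ACI gland and low in every BN gland by both of its probe sets. The first of the 2, 1390238_at, read 13.18, 13.40, 12.95, 13.28 and 13.24 in ACI rats 1 to 5, against 4.71, 3.26, 4.72, 4.71 and 5.29 in BN rats 1 to 5. The ACI mean was 13.21 ± 0.166 and the BN mean 4.54 ± 0.757 (SD, n = 5 each), a difference of 8.67. The lowest ACI rat stood 7.66 above the highest BN rat. Only 1 of the 5 BN rats lay under a log2 value of 4, the level below which a probe set is described here as near background, so that this probe set was low but above that level in most BN glands. Its fold was at least 368 when BN values under 4 were raised to 4.

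The second *Clca1* probe set, 1395853_at, separated the strains too. It read 11.50, 11.95, 11.27, 11.84 and 11.80 in the ACI rats, against 3.26, 3.10, 3.22, 3.93 and 2.99 in the BN rats. The means were 11.67 ± 0.280 in ACI rats and 3.30 ± 0.368 in BN rats, a difference of 8.37. All BN rats were under 4, so the BN value is near background and the fold of at least 204 is a lower bound. Both probe sets put the ACI rats in the same order, rat 2 highest and rat 3 lowest. They did not order the BN rats alike.

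*Scgb1d2-ps1* has 1 probe set, 1373762_a_at. It read 9.31, 10.13, 9.68, 9.43 and 9.51 in ACI rats, against 3.15, 2.99, 3.33, 5.61 and 3.08 in BN rats. BN rat 4 stood apart from the other BN rats, which were all under 4, and the strains still did not overlap, with a gap of 3.70. The means were 9.61 ± 0.319 in ACI rats and 3.63 ± 1.11 in BN rats, a difference of 5.98 and a fold of at least 39.1. The BN value was near background in 4 of 5 rats. How far this probe set also reads transcripts of other secretoglobins was not tested.

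*Aadat* was low in all BN rats but not under the background level in any of them. Its probe set 1387223_at read 9.60, 9.72, 9.85, 10.23 and 10.43 in ACI rats, against 4.28, 4.36, 4.39, 4.13 and 4.08 in BN rats. The BN rats lay within a narrow band, with a mean of 4.25 ± 0.138, against 9.97 ± 0.351 in ACI rats. The difference was 5.72, the gap between the strains 5.21 and the fold at least 52.6. Since all BN values were between 4 and 5, the BN level of *Aadat* is counted as above background at the level of 4 and as near background at a level of 5.

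*Magea9* (1381353_at) read 6.89, 7.42, 8.23, 8.41 and 8.44 in ACI rats, against 2.25, 2.32, 2.67, 2.67 and 2.25 in BN rats. The BN values came close to the lowest value of the data, 2.23, and are near background in all 5 rats. The ACI mean of 7.88 ± 0.691 had the widest spread of the ACI means of these probe sets, and the BN mean was 2.43 ± 0.219. The difference was 5.45, with a gap of 4.22 and a fold of at least 14.7.

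*Pnmt* (1371054_at) read 7.78, 8.28, 8.99, 8.48 and 7.49 in ACI rats, against 3.02, 2.83, 2.49, 2.49 and 3.61 in BN rats. Every BN rat was near background, and the gap to the lowest ACI rat was 3.88. The means were 8.20 ± 0.589 in ACI rats and 2.89 ± 0.463 in BN rats, a difference of 5.32 and a fold of at least 18.4. *Pnmt* lay nearest to the threshold of the 5 genes.

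**Figure D1:**
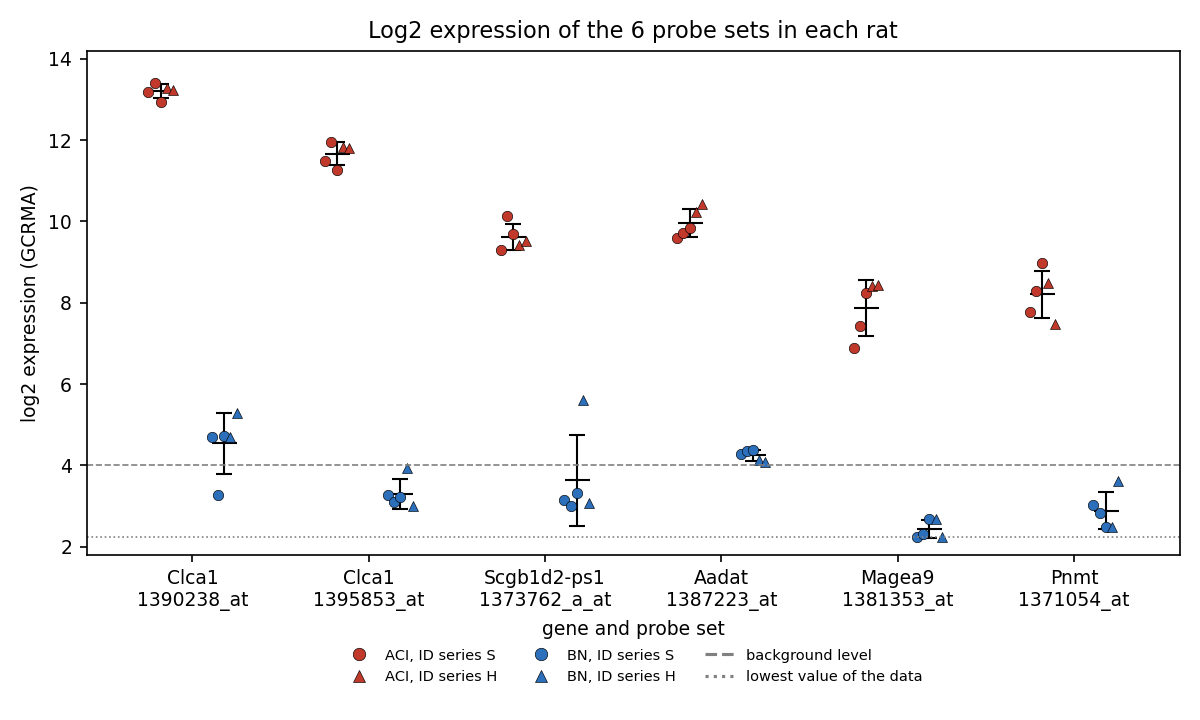
Expression of the 6 probe sets in each rat. The vertical axis is log2 expression (GCRMA), points are single rats (circles ID series S, triangles ID series H; ACI left and red, BN right and blue), and bars are the mean ± SD of 5 rats. The dashed line is the background level of 4 and the dotted line the lowest value of the data, 2.23. The ACI rats of each probe set lie 3.70 or more above the highest BN rat, and BN rat 4 stands apart at 5.61 for *Scgb1d2-ps1*.

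Of the 6 probe sets, 3 were near background in all BN rats (the second of *Clca1*, *Magea9* and *Pnmt*), while the lowest value of any ACI rat was 6.89, for *Magea9*. Over all 31042 probe sets, 49.0% had every BN rat under 4, and of the 19 probe sets that met the same difference and separation, 63.2% did. No BN value of the 6 probe sets was at the lowest value of the data. All 6 separated the strains because the rule asked for it. Separation toward ACI occurred in 6.80% of all probe sets, and separation with a difference over 5 in 0.0612%. In the limma fit, 12.7% of all probe sets differed between the strains, 6.79% with a higher level in ACI rats and 5.87% with a higher level in BN rats. Those 19 probe sets include 13 with 1 symbol, which stand for 12 genes, of which 7 are not described here. Just inside the threshold lay *Mlana* at 5.22, *Pnmt* at 5.32, *Magea9* at 5.45 and *Serpina3c* at 5.53, and just outside it *Prss32* at 4.94, *Trio* at 4.91 and *Rnase1l2* at 4.91.

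Probe-level data were not analysed here, so a strain difference in the probed sequence and one in transcript level cannot be told apart for a single probe set. Only *Clca1* has a second probe set.

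The ID series cross the strains, so they give a contrast the choice of genes did not use. With strain as a term, limma found no probe set that differed between H and S rats at an adjusted p under 0.05 (0.00%), while 2514 (8.10%) had an unadjusted p under 0.05. For the 6 probe sets, H minus S ran from -0.05 for *Pnmt* to 0.48 for *Magea9*, with limma adjusted p of 0.727 to 1. The strain difference within each series, whose direction the choice of genes fixed, is given as a description. It was 8.26 in H rats and 8.95 in S rats for the first probe set of *Clca1*, and 8.36 in H rats and 8.38 in S rats for the second. *Scgb1d2-ps1* differed by 5.125 in H rats and 6.55 in S rats, and *Pnmt* by 4.935 in H rats and 5.57 in S rats. *Aadat* and *Magea9* were the reverse, with larger differences in H rats (6.225 and 5.965) than in S rats (5.38 and 5.10).

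The strain by series interaction was called for 856 probe sets (2.76%), and of the 6 probe sets here for that of *Aadat* alone. H minus S was 0.61 in ACI rats and -0.24 in BN rats, an interaction of 0.85 ± 0.124 (SE; limma adjusted p = 0.028). The adjusted p of the other 5 probe sets was 0.524 to 1. This call was lost without ACI rat 2 (adjusted p = 0.0819), ACI rat 5 (0.0624), BN rat 2 (0.0704) or BN rat 5 (0.0601), and its adjusted p ran from 0.0132 to 0.183 over all alternatives. *Magea9* had a similar interaction of 0.87 but a wider error of 0.535.

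The other genes of each family and pathway were taken from 8 lists, with the 5 genes left out. Each gene was tested with limma on its probe set with the highest mean and adjusted over all probe sets. At an adjusted p under 0.05, 8.29% of all genes passed with a higher level in ACI rats and 9.12% with a higher level in BN rats, and the median difference over all genes was 0.00. In whole glands, fewer cells of a type and less RNA per cell cannot be told apart.

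Most measured relatives of *Clca1* were near background in both strains. Of 3 other CLCA genes, 1 was higher in ACI rats, and the median difference was 0.38. *Clca4l* averaged 4.58 ± 0.327 in ACI rats and 3.73 ± 0.259 in BN rats (SD, n = 5 each), a difference of 0.85 ± 0.182 (SE; limma adjusted p = 0.0185), and this call was lost without ACI rat 2 or ACI rat 4 (adjusted p up to 0.0526). *Clca4* (0.38, adjusted p = 0.302) and *Clca2* (0.00) were near background in both strains. The mucus and goblet cell genes, the setting in which CLCA1 is best known, held 18 measured genes, 11 of them near background in both strains. None was called higher in ACI rats and 1 was higher in BN rats. That gene was *Fcgbp*, a mucus protein, with 8.04 ± 0.501 in ACI rats and 9.41 ± 0.189 in BN rats (difference -1.37, adjusted p = 0.00633 from limma). The gel-forming mucins *Muc2* and *Muc5ac* were at the lowest value in all rats, and *Spdef*, a goblet cell transcription factor, differed by 0.88 with an adjusted p of 0.0524.

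None of the 5 other secretoglobins measured was called by limma, and 4 of them were near background in both strains. *Scgb1d2* and *Scgb1d4*, nearest in name and position to *Scgb1d2-ps1*, lay at or near the lowest value in every rat. *Scgb1a1*, the club cell secretoglobin of the airway, differed by -0.65 (adjusted p = 0.515).

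AADAT acts in lysine breakdown, and some enzymes on either side of it were also higher in ACI rats. Of 12 other genes of lysine breakdown, 5 were higher in ACI rats (against 8.29% of all genes) and none in BN rats, with a median difference of 0.31. *Aass*, which makes the first products of lysine on the way to aminoadipate, read 7.58, 8.33, 8.51, 8.76 and 8.51 in ACI rats, against 4.72, 6.16, 5.41, 5.36 and 2.40 in BN rats, a difference of 3.53 ± 0.658 (SE; limma adjusted p = 0.0097). BN rat 5 was far below the other BN rats, and the strains did not overlap. *Aldh7a1*, which forms aminoadipate, averaged 10.04 in ACI rats (9.86 to 10.34) and 8.25 in BN rats (7.35 to 8.83), a difference of 1.79 ± 0.264 (SE; adjusted p = 0.00317).

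Of the enzymes that follow AADAT, *Dhtkd1*, *Gcdh* and *Acat1* passed, and *Dlst* (-0.02, adjusted p = 1), *Dld* (0.33, 0.0763), *Hadh* (0.19, 0.521) and *Echs1* (0.30, 0.446) did not. The remaining genes of the list leaned toward BN or showed almost no difference and did not pass. They were *Crym* (-0.80, limma adjusted p = 0.239), and *Hykk* (-0.71, 0.09) and *Phykpl* (-0.002, 0.697), both near background in both strains. *Dhtkd1*, a subunit that acts on the oxoadipate made by AADAT, averaged 7.08 ± 0.251 in ACI rats and 5.83 ± 0.679 in BN rats. Its difference of 1.24 (limma adjusted p = 0.0358) was lost without any 1 of the ACI rats, BN rat 1 or BN rat 3, with adjusted p up to 0.0917. *Gcdh*, glutaryl-CoA dehydrogenase, differed by 0.50 (adjusted p = 0.0164), and its other probe sets by 1.86 (0.0249) and 0.89 (0.0517). *Acat1*, which ends the route in acetyl-CoA, differed by 1.26 (adjusted p = 0.0148) with overlap, since ACI rat 5 was at 9.53 and BN rat 4 at 9.58. The count of 5 was 4 to 6 when 1 rat was left out, 6 without BN rats 4 and 5, 5 in S rats alone and 0 in H rats alone, which number 2 per strain.

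**Figure D2:**
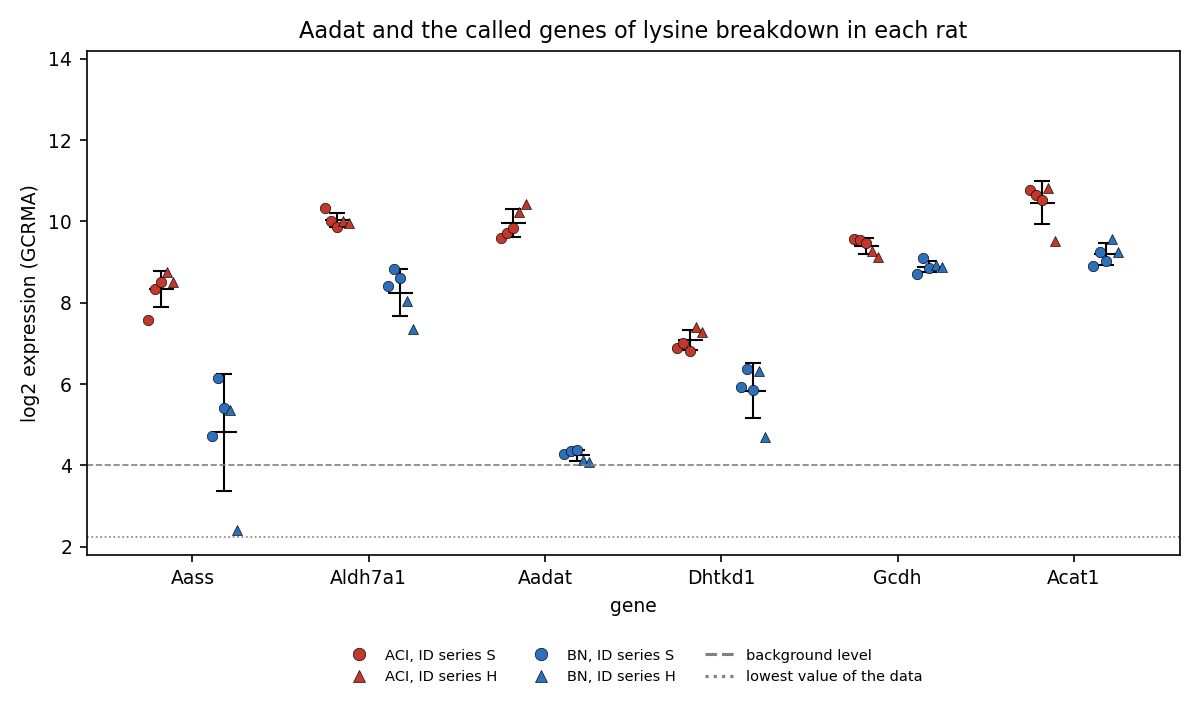
*Aadat* and the 5 called genes of lysine breakdown in each rat, in the order of the pathway. The vertical axis is log2 expression (GCRMA), points are single rats (circles ID series S, triangles ID series H; ACI left and red, BN right and blue), and bars are the mean ± SD of 5 rats, with the background level of 4 dashed. BN rat 5 has the lowest value of *Aass* (2.40), *Aldh7a1* (7.35) and *Dhtkd1* (4.69).

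In tryptophan breakdown, where AADAT makes kynurenic acid from kynurenine, ACI rats had the higher level for 2 of 12 other genes and BN rats for 1, with a median difference of 0.00. *Kyat1*, another kynurenine aminotransferase, averaged 7.62 ± 0.217 in ACI rats and 6.47 ± 0.218 in BN rats (1.15, limma adjusted p = 0.00109), and *Got2*, an aspartate aminotransferase that also uses kynurenine, 10.39 ± 0.0760 in ACI rats and 9.77 ± 0.245 in BN rats (0.63, adjusted p = 0.00774). The other *Got2* probe set averaged 2.23 in ACI rats and 2.37 in BN rats, and the call was lost with the mean over both (limma adjusted p = 0.159). *Qprt*, which leads quinolinate toward NAD, averaged 4.42 ± 0.198 in ACI rats and 6.04 ± 0.787 in BN rats (-1.62, adjusted p = 0.0196), a call lost without ACI rat 1 or ACI rat 4 (adjusted p up to 0.0507). The other *Qprt* probe set was at the lowest value. The competing enzymes for kynurenine, *Kmo* (-1.43, adjusted p = 0.0865) and *Kynu* (-1.04, 0.431), and *Kyat3* (0.61, 0.287), did not pass, although *Kmo* passed in 2 of 10 leave-one-out fits. *Tdo2* and *Ido1*, which start the pathway, were at the lowest value in all rats.

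The MAGE list held 7 other measured genes, none of them of the MAGE-A family and one of them, *Magix*, of another family. Of these 7, ACI rats had the higher level of 1 and BN rats of another 1. In S rats alone, ACI rats had the higher level of 3 and BN rats of 1. *Nsmce3* was not called on its probe set with the highest mean (1.02, limma adjusted p = 0.241), but its other probe set passed (0.68, 0.0329). *Magec2*, which was not on the list and lies near *Magea9* with 12 other genes between, was at the lowest value in every rat. *Maged1*, a widely expressed member, averaged 9.83 ± 0.145 in ACI rats and 9.15 ± 0.286 in BN rats (0.68, limma adjusted p = 0.0152). *Ndn*, necdin, averaged 5.42 ± 0.188 in ACI rats and 6.74 ± 0.560 in BN rats (-1.33, adjusted p = 0.0115). The germ cell markers, the setting in which MAGE-A genes are best known, were all near background, with a mean level of 2.23 to 2.37 in ACI rats and 2.23 to 2.28 in BN rats over 6 genes, 4 of them at the lowest value on every array.

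The enzymes that precede PNMT read at background in both strains. *Th*, *Ddc* and *Dbh*, which make noradrenaline from tyrosine, averaged 2.23, 2.24 and 2.27 in ACI rats and 2.25, 2.24 and 2.25 in BN rats, at or close to the lowest value (limma adjusted p of 0.561 to 0.73). The 9 measured markers of chromaffin and sympathetic nerve cells were all near background in both strains, 5 of them at the lowest value on every array, with a mean level of 2.23 to 2.28 in ACI rats and 2.23 to 2.25 in BN rats. Of 14 other genes of catecholamine synthesis, storage and breakdown, ACI rats had the higher level of 1 and BN rats of 2, with a median difference of 0.00.

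The called genes of this list act in breakdown. *Maoa*, a monoamine oxidase, averaged 9.43 ± 0.0760 in ACI rats and 8.32 ± 0.487 in BN rats (1.11, limma adjusted p = 0.0115). *Maob* was the reverse, at 4.44 ± 0.277 in ACI rats and 6.17 ± 0.288 in BN rats (-1.73, adjusted p = 0.000558). *Sult1a1*, a sulfotransferase, differed by -0.84 (adjusted p = 0.0465), a call lost in 8 of 10 leave-one-out fits (adjusted p up to 0.107). Of 8 adrenergic receptor genes, which respond to the product of PNMT, only *Adra2a* passed, at 5.03 ± 0.115 in ACI rats and 6.48 ± 0.769 in BN rats (-1.45, adjusted p = 0.0258). This call was also lost in 8 of 10 such fits (adjusted p up to 0.0673), and the other *Adra2a* probe set was at the lowest value.

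**Figure D3:**
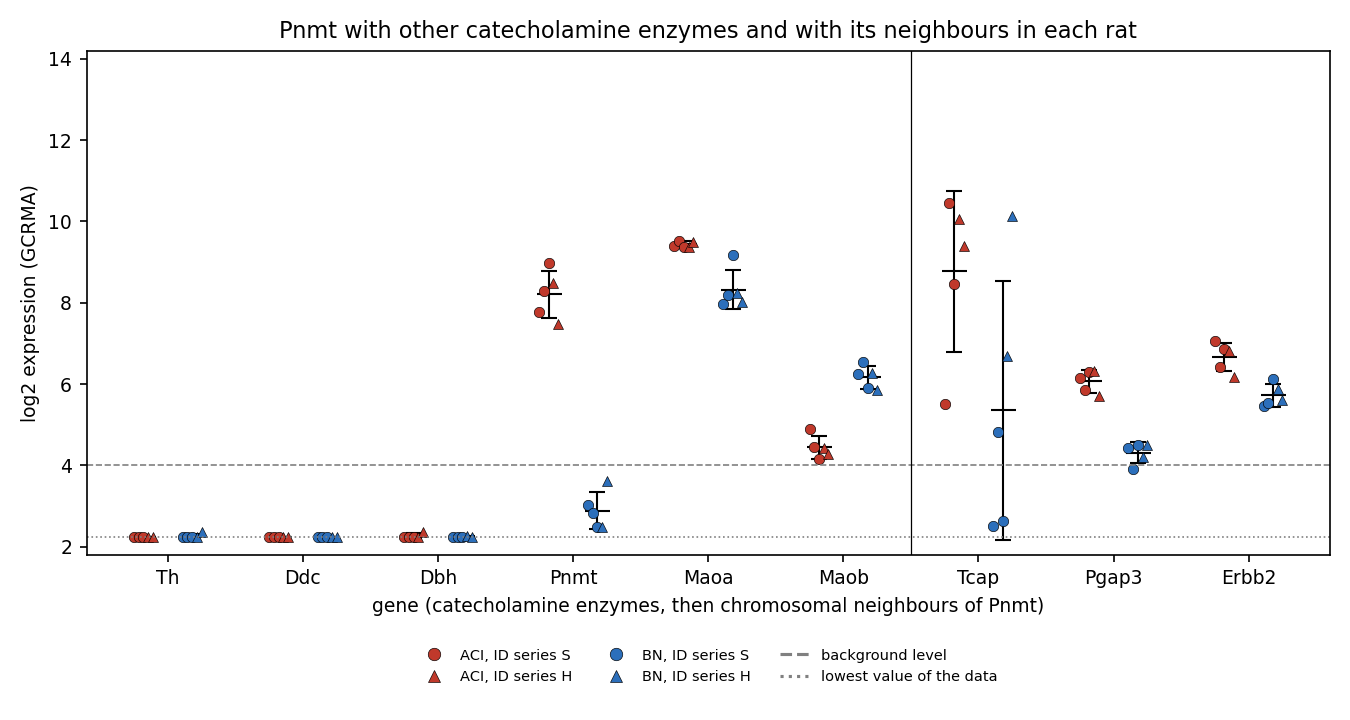
*Pnmt* beside other genes of catecholamine synthesis and breakdown (left of the line) and 3 of its chromosomal neighbours (right of the line) in each rat. The vertical axis is log2 expression (GCRMA), points are single rats (circles ID series S, triangles ID series H; ACI left and red, BN right and blue), and bars are the mean ± SD of 5 rats. *Th*, *Ddc* and *Dbh* lie at or close to the dotted lowest value of 2.23, while *Pnmt* lies at 7.49 to 8.99 in ACI rats.

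The measured genes nearest to each of the 5 on its chromosome were read in the same fit, 5 on each side in RefSeq order. Other genes could lie between. They numbered up to 9 around *Clca1*, 11 around *Scgb1d2-ps1*, 10 around *Pnmt* and 37 around *Aadat*. Around *Magea9* they numbered 12 to 65. Of the 50 neighbours, 6 passed with a higher level in ACI rats (against 8.29% of all genes) and 1 with a higher level in BN rats (against 9.12% of all genes), 22 were near background in both strains, and the median difference was 0.00.

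*Pnmt* had called neighbours right beside it. *Pgap3*, a gene of GPI-anchor remodeling and the next measured gene, read 6.14, 5.85, 6.30, 6.33 and 5.70 in ACI rats, against 4.43, 3.90, 4.51, 4.20 and 4.49 in BN rats, a difference of 1.76 ± 0.166 (SE; limma adjusted p = 0.000395). *Erbb2*, the HER2 receptor tyrosine kinase and the one after it, read 7.05, 6.42, 6.86, 6.82 and 6.18 in ACI rats, against 5.45, 5.53, 6.12, 5.88 and 5.62 in BN rats (0.95 ± 0.196, adjusted p = 0.0157). Neither overlapped between strains, although ACI rat 5 came close to BN rat 3 for *Erbb2*. On the other side, *Tcap*, a muscle gene, varied widely, at 5.51, 10.45, 8.46, 10.05 and 9.40 in ACI rats, against 2.51, 4.81, 2.62, 6.69 and 10.13 in BN rats (3.42, adjusted p = 0.245). Skeletal muscle markers varied likewise, with a mean level over 9 genes of 6.53 to 10.39 in ACI rats and 3.82 to 9.46 in BN rats.

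Around *Clca1*, *Clca4l* (above) and *Odf2l* were higher in ACI rats, the second by 0.85 (limma adjusted p = 0.0319), a call lost in 7 of 10 leave-one-out fits (adjusted p up to 0.0813). Beside *Scgb1d2-ps1*, *Incenp*, a chromosomal passenger protein, differed by 1.26 (adjusted p = 0.0115) with all BN rats under 4. This call was lost with values under 4 raised to 4 (0.41, adjusted p = 0.144) and in S rats alone (0.0706). Its other probe sets differed by 0.87 (limma adjusted p = 0.028) and -0.31 (0.596), and the mean over its probe sets kept the call (0.61, 0.00797). Also near *Scgb1d2-ps1*, *Fads2*, a fatty acid desaturase, differed by 2.13 (adjusted p = 0.00414), and *Asrgl1*, an asparaginase, by -1.74 (0.00161). None of the 10 neighbours of *Aadat* or of *Magea9* was called on its probe set with the highest mean, and 6 and 7 of them were near background in both strains. The nearest on each side of *Magea9* had 12 (*Magec2*) and 54 (*Fmr1*) other genes between, so the genes directly beside it were not read. Lower probe sets of some neighbours not called by their highest one did pass, namely *Clcn3* near *Aadat* (1.07, adjusted p = 0.00172), *Eola2* near *Magea9* (-1.45, 0.0149), and *Sh3glb1* (0.67, 0.00144) and *Hs2st1* (-0.68, 0.0348) near *Clca1*.

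**Figure D4:**
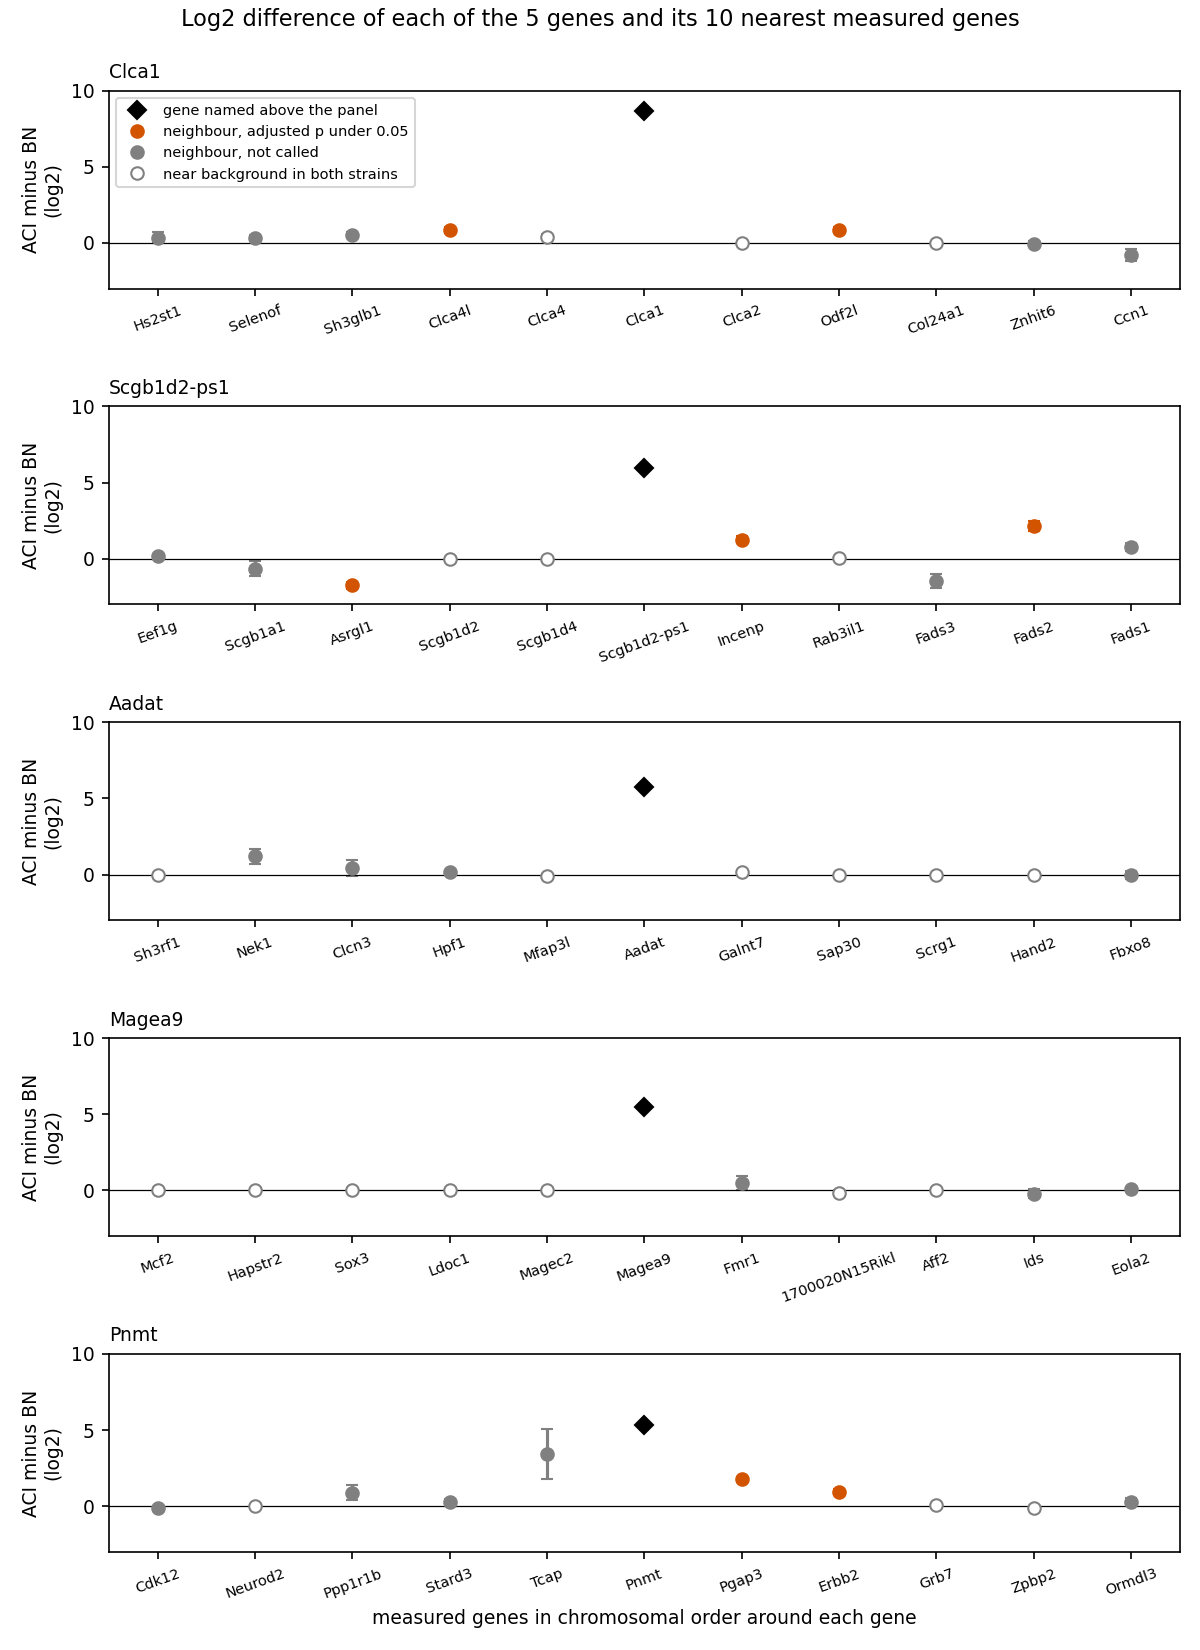
Difference of each of the 5 genes and of its 10 nearest measured genes, in chromosomal order. The vertical axis is ACI minus BN in log2 units, circles are neighbours with bars of 1 SE from limma (orange at an adjusted p under 0.05, open when near background in both strains), and the diamond is the gene itself with no error bar. The diamonds lie at 5.32 to 8.67 and the neighbours between -1.74 and 3.42.

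The 3 genes most like each of the 5 over the 10 arrays were found by the root mean square difference of profiles centred on their means, in log2 units. This measure is led by the size of the strain difference, which the choice of genes fixed, so it is given as a description. *Areg*, a ligand of the epidermal growth factor receptor, was the nearest to *Aadat* (0.217), *Magea9* (0.311) and *Scgb1d2-ps1* (0.808), and the third for *Pnmt* (0.514). *Aadat* and *Magea9* were second to each other at 0.339, followed by *Mlana* for *Aadat* (0.446) and *Mx2* for *Magea9* (0.477). *Pnmt* was nearest to *Prss32* (0.445) and *Hpgd* (0.506), and *Scgb1d2-ps1* had *Aadat* (0.830) and *Magea9* (0.836) next. *Clca1* had no close match, with *Orm1*, an acute phase protein, at 0.904, *Spink8*, a protease inhibitor, at 1.12 and *Scgb1d2-ps1* at 1.57.

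Levels of some cell type markers also differed between the strains in RNA of whole glands. Cell numbers were not measured on the arrays, and the part of gland makeup in the values above was not tested. Of 10 luminal epithelial markers, 4 were higher in ACI rats (against 8.29% of all genes), *Cldn3* by 1.92, *Elf5* by 1.06, *Krt18* by 1.02 and *Epcam* by 0.74. *Krt8* (0.22), *Krt19* (-0.18), *Cldn4* (-0.01) and *Gata3* (0.61) were not called. *Gata3* has 2 probe sets, and the count of 4 became 5 with the mean over the probe sets of each gene. *Foxa1* and *Esr1*, each read by 1 probe set, were at the lowest value on every array. How well a probe set reads its transcript was not tested, here or for other genes at the lowest value. The mean level of the 10 was 9.47 to 9.90 in ACI rats and 8.82 to 9.49 in BN rats. B and plasma cell markers were higher in BN rats for all 5 genes measured (against 9.12% of all genes), at 3.03 to 3.23 in ACI rats and 5.19 to 9.82 in BN rats. T cell markers were higher in BN rats for 5 of 8, at 4.75 to 5.26 in ACI rats and 5.40 to 8.15 in BN rats. In S rats alone, these counts were 2 for B and plasma cell markers and 0 for T cell markers. BN rat 3 was at the ACI level for *Ms4a1* (2.23) and *Cd79b* (2.24). It lay within the ACI range for *Cd5* (3.86) and *Lck* (6.37), so the strains overlapped for all of these genes. Adipocyte markers averaged 9.68 to 10.73 in ACI rats and 10.35 to 10.99 in BN rats. Of 8 genes, 1 was higher in BN rats, near the share of all genes (9.12%). It was *Adipoq* (-0.86, limma adjusted p = 0.0481), with overlap between the strains. This count was 0 in S rats alone, 0 in H rats alone and 0 to 3 without 1 rat.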

How the data were processed

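Mammary gland RNA of 10 rats (5 ACI, 5 BN) was measured on Affymetrix arrays, 1 per rat. Per the submitters' processing notes, the authors summarized probes with GCRMA 2.18.1 to the deposited log2 values, which hold 2 decimals. The sources used here do not say which arrays were normalized as 1 set. Of 31099 probe sets, 57 controls were left out. Genes were named from the platform annotation, updated by gene ID through RefSeq. Of the probe sets tested, 20826 had 1 symbol (20758 matched by gene ID), 436 had several and 9780 had none. Array medians were 3.35 to 3.53, and 30.6% to 33.3% of the probe sets of an array shared the lowest value. The number of arrays limits the precision.

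Strains were compared with limma 3.58.1 (R 4.3.3), with Benjamini-Hochberg adjustment over 31042 probe sets. Of these, 3930 (12.7%) passed at 0.05, with 2108 (6.79%) higher in ACI and 1822 (5.87%) higher in BN. The fit was tested on simulated data. A gene was represented by its probe set with the highest mean. An at-least fold is 2 to the power of the ACI mean minus the mean of BN values raised to 4.

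The 5 genes and the lists were chosen with earlier results of these data known. Named genes were the 5 genes, the 3 called genes of each list with the largest difference in each direction, the pathway genes next to 1 of the 5, called neighbours, the 3 most alike genes and those beside the threshold. Other list genes and *Tcap*, *Clcn3*, *Eola2*, *Sh3glb1* and *Hs2st1* were named after their values were seen. Alternatives were other normalizations, a floor, a filter, other variance models, Student's test, ID series and replicate blocks, each ID series alone and leaving out each rat. Same-numbered rats of the strains did not deviate together, so the numbers did not pair them.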

Additional observations from a re-analysis of the deposited data

Results flagged for a closer look

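In 12 groups of 5 rats (6 probe sets, 2 strains), 3 held a rat far from the others, where chance flags about 1 in 20 groups. BN rat 2 was lowest for the first *Clca1* probe set, at 3.26, with a gap to the next rat of 0.714 of the range of the group. BN rat 4 was highest for the second *Clca1* probe set, at 3.93, with a gap of 0.713. BN rat 4 was also highest for *Scgb1d2-ps1*, at 5.61, with a gap of 0.870, and its value is the only one of the BN rats above 4 for that gene.

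The difference between H and S rats of *Aadat* differed between ACI and BN by 0.845 (limma adjusted p = 0.028). Both H rats of ACI lay above every S rat of ACI, and both H rats of BN lay below every S rat of BN.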

How the results depend on the processing

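The named genes of lists and neighbours were fitted 610 times over 28 genes. Of these fits, 518 kept the outcome, whether called or not, 89 lost a call, 3 gained one and 0 reversed a called difference. *Th*, *Ddc*, *Dbh*, *Kmo*, *Kynu* and *Kyat3* had no call to lose. The differences of *Ddc* (0.004) and *Dbh* (0.018) changed sign after centring (-0.024 and -0.01). Of probe sets called between strains (3930, 2108 higher in ACI and 1822 in BN), centring gave 2807 higher in BN. S rats alone gave 2783 higher in BN, and H rats alone 100, with 45 higher in ACI and 55 in BN. The replicate block gave 1926, with 1040 higher in ACI and 886 in BN, although numbers shared no deviation and no rat correlated best with its own number. Leaving out BN rats 4 and 5, chosen after seeing the data, gave 6350, with 3768 higher in BN. Leaving out 1 rat gave 2598 to 4618, with 1422 to 2118 higher in ACI and 1176 to 2500 in BN, each lowest without ACI rat 4.

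The 16 list genes called became 0 in H rats, 6 with the replicate block (3 of lysine breakdown in place of 5) and 11 to 17 without 1 rat. The 7 neighbours called became 4 in S rats, 0 in H rats, 4 with the replicate block and 5 to 8 without 1 rat. In S rats alone, 3 per strain, *Clca4l*, *Fcgbp*, *Got2*, *Qprt*, *Maoa*, *Sult1a1*, *Adra2a*, *Odf2l*, *Incenp* and *Erbb2* were not called. The interaction of *Aadat* was also not called after quantile normalization (adjusted p = 0.0966) or with a trended and robust variance (0.183). No probe set was called between H and S, against 6 among those with a mean of at least 4, 1 after quantile normalization and 0 to 3 without 1 rat.

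A floor at 4 lowered the strain difference to 7.67 for the second *Clca1* probe set, 3.88 for *Magea9* and 4.20 for *Pnmt*, which by construction follows from BN values under 4. In S rats *Aadat* differed by 5.38, and in H rats *Scgb1d2-ps1* by 5.125, *Aadat* by 6.225 and *Magea9* by 5.965. Without 1 rat, the differences were 8.35 to 8.86 and 8.29 to 8.53 for the *Clca1* probe sets, 5.82 to 6.47 for *Scgb1d2-ps1*, 5.60 to 5.81 for *Aadat*, 5.31 to 5.69 for *Magea9* and 5.12 to 5.50 for *Pnmt*. At a background level of 3, 1 of the 6 probe sets was near background in BN in place of 3, and at 5, 4 were. The folds were then at least 331 (level 3) and 102 (level 5) for the second *Clca1* probe set, 31.3 (level 5) for *Aadat*, 29.4 (3) and 7.35 (5) for *Magea9*, and 33.8 (3) and 9.22 (5) for *Pnmt*. For the first *Clca1* probe set they were at least 408 (3) and 284 (5), and for *Scgb1d2-ps1* at least 63.0 (3) and 22.5 (5). The cause of the other changes was not tested. Values near background limit the folds.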
